A study of Mus musculus with 28 samples.

Results

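The genes described here are 10 mouse genes of lipoprotein assembly: Apoa1, Apoa2, Apoa4, Apoa5, Apob, Apoc3, Apoe, Apom, Lcat and Mttp. Members were the array probes whose transcript accession belonged to one of these symbols, which gave 16 probes of 41174 and 10 genes of 20300 tested features (genes, or transcripts with no symbol in the tables used). All 16 probes were well above background and none was saturated on any of the 28 arrays, so all 10 genes passed the filter on dim probes.

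Lipoproteins are particles that carry triglyceride and cholesterol in plasma, and hepatocytes are their main source besides the intestine. Apob is the scaffold of very low density lipoprotein, and Mttp loads it with lipid in the endoplasmic reticulum. Apoa1 and Apoa2 are the main proteins of high density lipoprotein, on which Lcat esterifies cholesterol, while Apoa4, Apoa5, Apoc3, Apoe and Apom exchange between particles and set how these are broken down or taken up.

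Liver RNA of mice lacking Fah was measured on 28 single-colour microarrays, with 1 sample per array and 4 arrays in each of 7 groups. Fah is the last enzyme of tyrosine breakdown, and NTBC (nitisinone) blocks an earlier step of that pathway, so that lowering the drug exposes Fah-/- hepatocytes to toxic tyrosine products. Fah-/- and Fah-/- p53-/- mice were sampled at 3 doses, and Fah-/- p21-/- mice without NTBC only. All 7 groups thus lacked Fah, and p53, a DNA damage regulator, and p21 (Cdkn1a), a cell cycle inhibitor that p53 induces, were the additional losses. The full dose (100% NTBC) was 7.5 mg/L in drinking water. The reduced dose is 25% NTBC in the sample labels, but 2.5% of the normal dose for 3 months in the protocol text, and is called the reduced dose throughout. The third dose was 0% NTBC, and the time without the drug, the animals' ages and the kind of knockout alleles are not given in the sources used here. Nothing in the labels says that the 4 samples of a group were separate animals in separate experiments, so a p-value here speaks to the variation among the arrays of a group, which may be technical.

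No scan run held more than 1 dose (0% NTBC was scanned in 2 runs, the other doses in 1 each), so dose and scan run cannot be told apart in any dose comparison. At the full and the reduced dose each genotype also had a slide to itself, so slide and p53 loss cannot be told apart at those doses. The 12 arrays without NTBC shared 3 slides, each with 2 genotypes. All 4 Fah-/- p53-/- arrays without NTBC showed Xist at 3.07 to 3.69, and so did replicates 1 and 2 of Fah-/- p21-/- (3.49 and 3.39), while the other 22 arrays lay between -7.43 and -5.0. Ddx3y, a gene of the Y chromosome, showed the reverse (-7.70 to -7.07 on those 6 arrays and 1.17 to 2.04 on the others), so sex differs with genotype at 0% NTBC. In Fah-/- p53-/- it also differs with dose: all 4 arrays without NTBC carry the female pattern and all 8 at the full and reduced doses the male one, so sex and 0% NTBC cannot be told apart in that genotype. In Fah-/- the arrays of all 3 doses carry the male pattern. Fah remained measurable in all groups (group means -3.06 to -0.06), as did Trp53 in Fah-/- p53-/- (0.54 to 1.21) and Cdkn1a in Fah-/- p21-/- (3.24). Where these 3 probes lie relative to the deleted parts is not in the sources used here, so they do not check the labels. Alb and the 7 other hepatocyte markers tested were well above background in every group.

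Levels are log2 signal minus the log2 of the same array's 75th percentile of signal, so 0 is the 75th percentile and 1 unit is a doubling. Differences are log2 fold changes from a limma fit over all 28 arrays with their standard errors (SE). Calls are Benjamini-Hochberg adjusted p under 0.05 over the 20300 features. Levels of different genes come from different probes and are not set against each other. Scaling bears on every dose comparison here: the 75th percentile itself rose as the dose fell (log2 group means of 8.21, 8.45 and 9.04 in Fah-/- and 8.10, 8.68 and 8.89 in Fah-/- p53-/- at full, reduced and 0% NTBC), while the spiked-in control RNA fell (12.89, 12.76 and 12.20, and 13.06, 12.63 and 11.96). For the main results the range over 6 ways of scaling the arrays is given beside the value.

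Without NTBC, 9 of the 10 genes changed in Fah-/- livers, 7 downward and 2 upward. In that comparison 70.8% of all features were called, 41.5% lower and 29.3% higher. The median change of the 10 genes was -1.47, against -0.17 for all features. The same 7 genes fell and the same 2 rose in Fah-/- p53-/- livers, where 69.7% of features were called (40% lower, 29.6% higher) and the medians were -1.57 and -0.14; in that genotype the dose comparison is also one of female with male livers. The directions of Apob (by the brightest of its probes), Apoa2, Apoa4 and Mttp were the same under all 6 scalings, but the counts were not. With quantile normalization 5 fell and 3 rose in Fah-/- and 5 fell and 4 rose in Fah-/- p53-/-. With spike-in scaling 2 fell and 4 rose, and 2 fell and 5 rose. Of all called features, 41.4% and 42.5% were higher with 75th percentile scaling, 50.3% and 50.7% with quantile normalization, 31.0% and 32.3% with normexp background correction, 78.6% and 78.0% unscaled, and 92.7% and 95.5% with spike-in scaling. Apob, by its brightest probe, and Apoa2 fell most, Apoa4 rose most and Mttp rose. Apom was not called in any of the 13 comparisons with 75th percentile scaling. With 75th percentile scaling 9 of the 10 genes had non-overlapping arrays in each of these comparisons, as did 66.9% and 59.9% of all features.

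**Figure D1:**
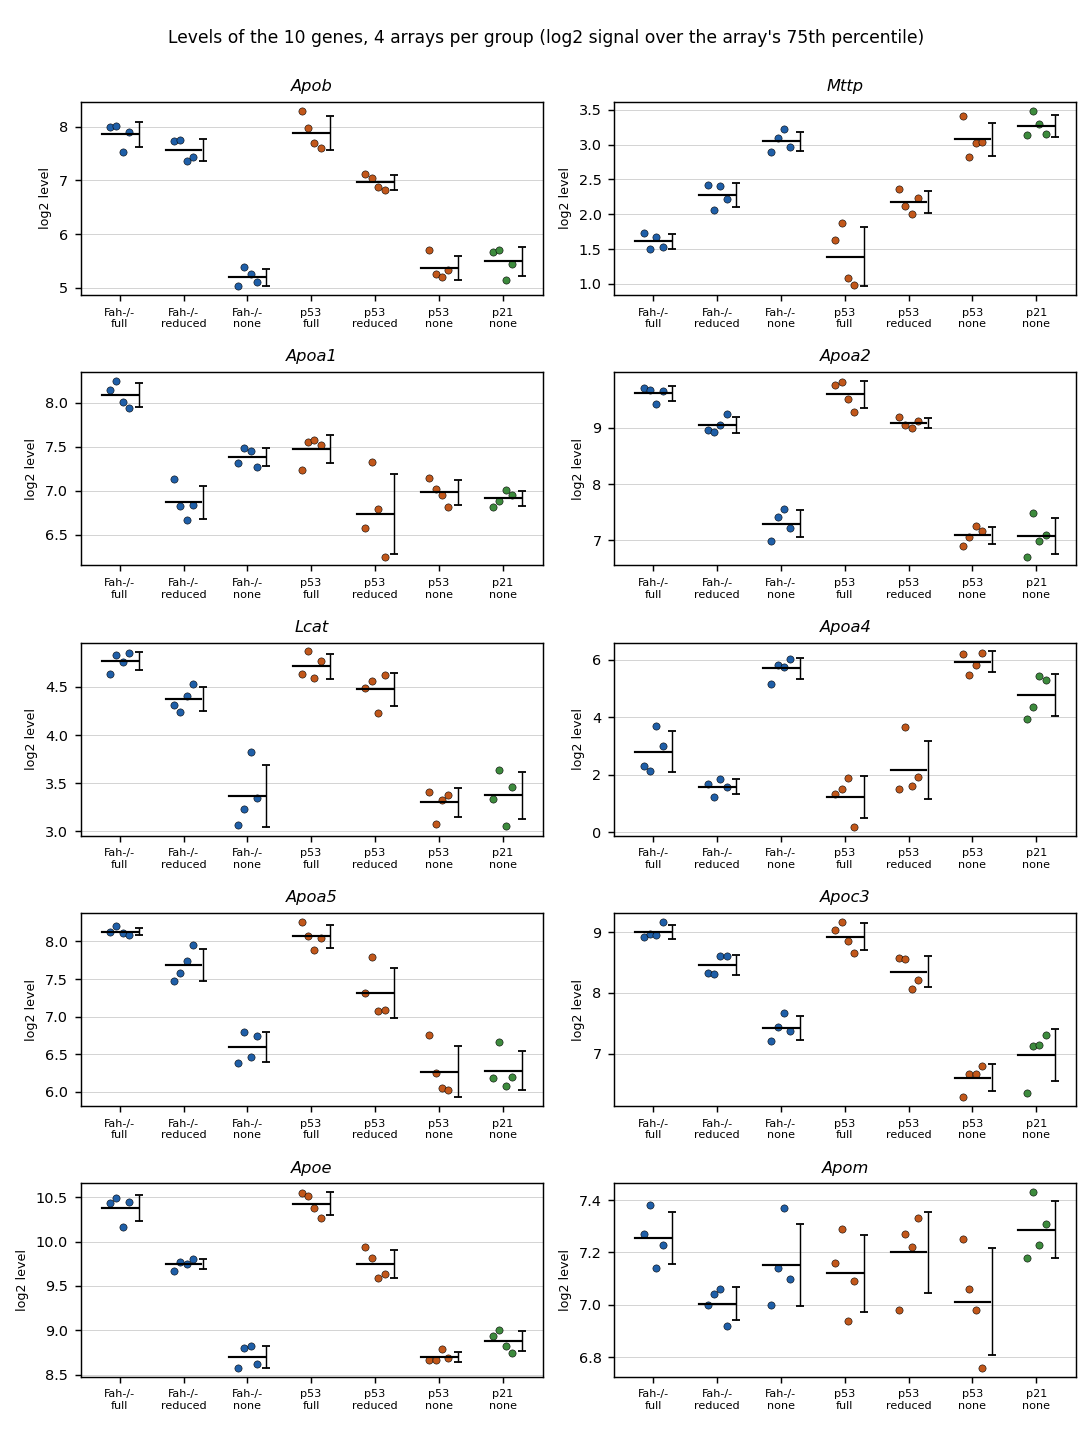
Levels of the 10 genes on every array, as log2 signal over the array's 75th percentile, by group (p53 and p21 stand for Fah-/- p53-/- and Fah-/- p21-/-). Points are arrays, horizontal lines the mean of 4 and bars 1 SD. Apob, Apoa2, Apoa5, Apoc3, Apoe and Lcat step down to 0% NTBC, Mttp steps up, Apoa4 is highest without NTBC and Apom stays between 6.76 and 7.43.

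From the reduced dose to 0% NTBC, 6 of the 10 genes fell and 3 rose in Fah-/- (64.2% of all features called, 38.1% lower and 26.1% higher), and 6 fell and 2 rose in Fah-/- p53-/- (61.3% called, 38.1% lower and 23.2% higher). The arrays of these doses did not overlap for 9 genes and 8 genes, as for 57.8% and 54.4% of all features. The share of called features that were higher was 40.7% and 37.8%, against 75.9% and 51.9% unscaled, 92.5% and 85.6% with spike-in scaling and, in Fah-/- p53-/-, 48.6% in the deposited table.

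At the reduced dose the movement was smaller. Of the 10 genes 7 fell and 1 rose in Fah-/- (39.8% of all features called, 22.3% lower and 17.4% higher), and 6 fell and 1 rose in Fah-/- p53-/- (39.8% called, 19.4% lower and 20.4% higher). The genes' median was -0.49 in Fah-/- and -0.54 in Fah-/- p53-/-, against -0.03 and 0.03 for all features. Arrays of the reduced and the full dose did not overlap for 9 and 6 of the 10, as for 44.3% and 39.3% of all features. Of the called features 43.9% and 51.2% were higher, against 74.4% and 95.4% unscaled, 84.8% and 99.1% with spike-in scaling and, in Fah-/- p53-/-, 24.7% with normexp correction. Most of these falls rested on the scaling: with quantile normalization or in the deposited value table, 1 gene fell and 1 rose in Fah-/-, and 1 fell and 2 rose in Fah-/- p53-/-. The fall of Apoa1 in Fah-/- (-1.22 to -0.83) and the rise of Mttp in both genotypes (0.67 to 1.05 and 0.79 to 1.79) were called under all 6 scalings.

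**Figure D2:**
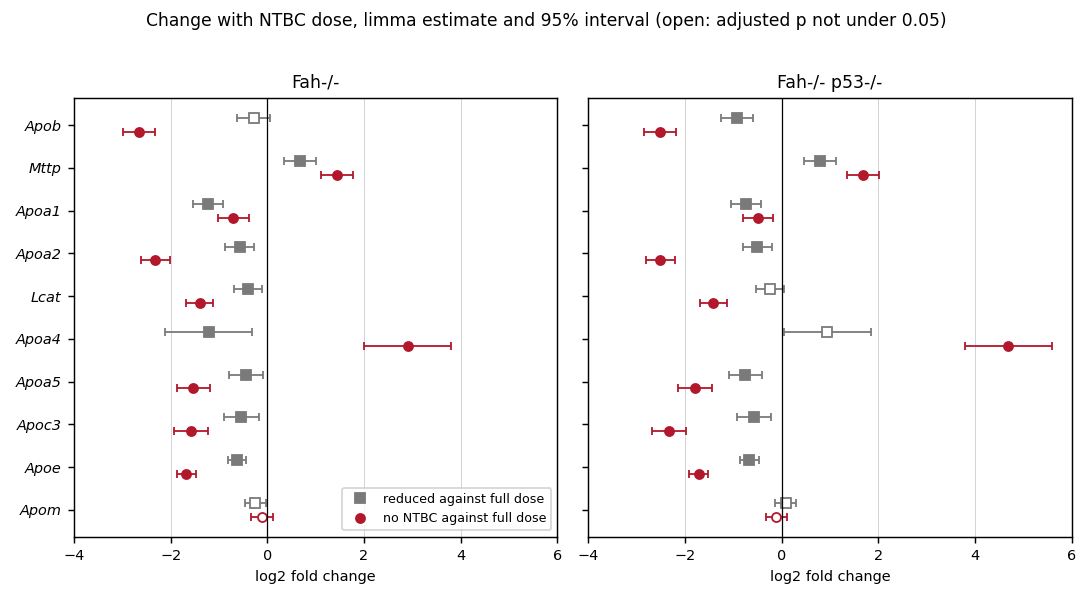
Log2 fold change of each gene at the reduced dose (grey squares) and at 0% NTBC (red circles) against the full dose, in Fah-/- (left) and Fah-/- p53-/- (right), with the 95% interval of the limma fit. Filled symbols passed the test. The 7 genes that fell without NTBC lie left of 0 in both panels, and Apoa4 (2.90 and 4.69) and Mttp (1.44 and 1.68) lie right of it.

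Apob, the scaffold that stays on its particle from assembly to clearance, was measured by 5 probes, of which the brightest (A_51_P413088) stood for the gene. Its levels in Fah-/- were 7.99, 8.02, 7.52 and 7.91 at the full dose, 7.74, 7.75, 7.36 and 7.44 at the reduced dose, and 5.03, 5.39, 5.26 and 5.10 without NTBC. The arrays without NTBC stood apart from all others, and those of the full and the reduced dose overlapped. The fall without NTBC was 2.66 ± 0.16 (SE) on the log2 scale, or 6.33-fold (adjusted p = 1.44e-12, limma). The reduced dose gave -0.28 ± 0.16 (adjusted p = 0.165, limma).

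The Apob levels of Fah-/- p53-/- livers were 8.30, 7.97, 7.69 and 7.60 at the full dose, 7.12, 7.04, 6.87 and 6.83 at the reduced dose, and 5.70, 5.26, 5.20 and 5.34 without NTBC. Here the 3 doses formed 3 separate steps. The reduced dose lowered Apob by a log2 change of -0.92 ± 0.16 (adjusted p = 8.86e-05, limma), and 0% NTBC gave -2.51 ± 0.16, a 5.71-fold lower level (adjusted p = 3.03e-12, limma). The reduced-dose fall was called under 4 of 6 scalings, with a range of -0.92 to 0.08. The reduced-dose response of the 2 genotypes differed by -0.64 ± 0.23, which missed the threshold (adjusted p = 0.0720, limma). Fah-/- p21-/- livers without NTBC held 5.67, 5.71, 5.14 and 5.44, overlapping both other genotypes. The fall without NTBC was called under all 6 scalings in both genotypes, from -2.66 to -1.14 in Fah-/- and from -2.51 to -0.63 in Fah-/- p53-/-.

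The 5 Apob probes fell into 2 sets that moved differently, a split noticed after their values were seen and therefore described without a test. A_51_P413088, A_51_P380650 and A_51_P436690 followed each other over the 28 arrays (Pearson r 0.993 to 0.995), as did A_51_P470542 and A_52_P441070 (0.979), but r between the sets was 0.836 to 0.882. The mean of the first 3 minus the mean of the other 2 was taken within each array, where a scaling factor per array cancels; background correction, quantile normalization and the deposited values can still move it and were not tried on it. This difference was -0.77, -0.68, -0.95 and -0.88 in Fah-/- at the full dose, -0.11, -0.06, -0.45 and -0.54 at the reduced dose, and -1.78, -1.64, -1.55 and -1.49 without NTBC. The 3 doses did not overlap, and the order was reduced above full above none.

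In Fah-/- p53-/- the same difference was -0.49 ± 0.11 (SD, n = 4) at the full dose, -0.44 ± 0.06 at the reduced dose and -1.72 ± 0.12 without NTBC, and in Fah-/- p21-/- it was -1.55 ± 0.14. All 12 arrays without NTBC thus lay below all 16 others. The probe chosen decides some calls and the size of the fall. From full dose to 0% NTBC, A_51_P470542 went from a mean of 6.91 to 5.28 in Fah-/- and 6.53 to 5.58 in Fah-/- p53-/-. A_52_P441070 went from 7.12 to 5.78 and from 6.81 to 5.99. Values of these 2 probes under the other scalings are not given here. From the reduced dose to 0% NTBC in Fah-/- p53-/- the first set fell by 1.25 to 1.59 on the log2 scale, while A_51_P470542 and A_52_P441070 gave -0.17 and -0.02, neither of which was called. At the reduced dose in Fah-/- the first set gave -0.28 to -0.19, none called, while the second set fell by 0.84 and 0.71. Where on the Apob transcript each probe lies is not in the files used here.

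**Figure D3:**
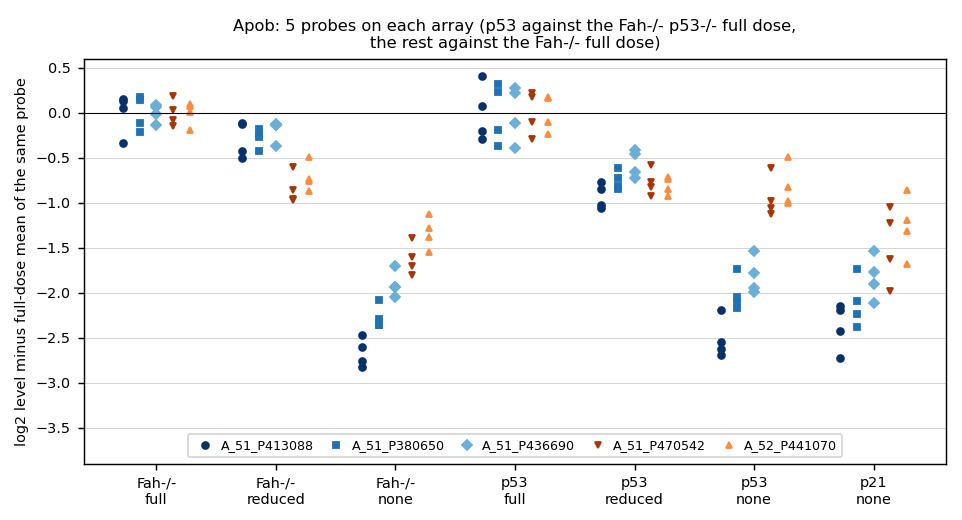
Log2 level of each of the 5 Apob probes on every array, minus that probe's full-dose mean (the Fah-/- p53-/- full dose for that genotype, labelled p53, and the Fah-/- full dose for the rest). The 3 blue probes have lower means than the 2 orange ones in all 3 groups without NTBC, where single arrays of the sets overlap in Fah-/- and Fah-/- p21-/- but not in Fah-/- p53-/-, and higher means at the reduced dose in Fah-/-.

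The start of Apob is shown because its brightest probe fell most among the genes in Fah-/- livers, which its other probes did not. RefSeq (GRCm38.p6) places 250 bases before and 50 after the annotated gene start here, with TATAAA in capitals:

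Apob, chr12:7977427-7977726, plus strand: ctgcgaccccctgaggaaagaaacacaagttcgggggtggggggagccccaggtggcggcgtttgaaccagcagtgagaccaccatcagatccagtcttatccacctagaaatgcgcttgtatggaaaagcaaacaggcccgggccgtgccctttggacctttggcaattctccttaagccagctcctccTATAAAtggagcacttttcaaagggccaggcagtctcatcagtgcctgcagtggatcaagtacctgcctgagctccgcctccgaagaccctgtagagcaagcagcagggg

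The letters TATAAA begin 60 bases before the start, and 13.6% of 32851 mouse promoters of the same 300 bases hold them on either strand.

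Mttp, the transfer protein that lipidates Apob, moved the opposite way to its substrate. Its Fah-/- levels were 1.73, 1.5, 1.68 and 1.53 at the full dose, 2.42, 2.06, 2.40 and 2.22 at the reduced dose, and 2.90, 3.1, 3.22 and 2.97 without NTBC. In Fah-/- p53-/- they were 1.63, 1.87, 1.08 and 0.99, then 2.37, 2.12, 2.0 and 2.23, then 3.41, 2.83, 3.02 and 3.04. In both genotypes the doses formed 3 rising steps with no overlap. Fah-/- p21-/- livers without NTBC had 3.14, 3.49, 3.30 and 3.15, inside the range of the other genotypes at that dose apart from 1 array.

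Mttp rose by 0.67 ± 0.16 (adjusted p = 0.00182, limma) at the reduced dose and by 1.44 ± 0.16, or 2.71-fold, without NTBC in Fah-/- (adjusted p = 2.79e-08, limma). The rises in Fah-/- p53-/- were 0.79 ± 0.16 (adjusted p = 3.98e-04, limma) and 1.68 ± 0.16, or 3.21-fold (adjusted p = 2.14e-09, limma). Mttp was not called for p53 loss at any of the 3 doses or for p21 loss at 0% NTBC, with differences from -0.22 to 0.22. Under the 6 scalings the rises without NTBC were 1.44 to 2.96 and 1.66 to 3.57, all called. Apob minus Mttp within an array, from which a scaling factor per array cancels, went from a mean of 6.25 ± 0.29 (SD, n = 4) at the full dose through 5.30 ± 0.30 to 2.15 ± 0.10 in Fah-/-, and from 6.5 ± 0.26 through 4.78 ± 0.14 to 2.30 ± 0.10 in Fah-/- p53-/-. In each genotype the 3 doses were separate, and the 2 transcripts changed unequally at both lower doses.

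The annotated start of Mttp is given for comparison with that of Apob, from RefSeq (GRCm38.p6), on the minus strand and with no capitals because none of the 5 motifs searched occurs in it:

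Mttp, chr3:138143369-138143668, minus strand: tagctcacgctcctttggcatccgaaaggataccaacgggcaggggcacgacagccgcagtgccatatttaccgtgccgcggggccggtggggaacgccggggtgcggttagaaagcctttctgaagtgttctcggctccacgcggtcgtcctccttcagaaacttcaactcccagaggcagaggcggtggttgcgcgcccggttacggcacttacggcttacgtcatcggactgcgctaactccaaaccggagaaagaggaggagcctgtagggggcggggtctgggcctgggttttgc

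The motifs were TATAAA, the nuclear receptor site AGGTCA (in 16.3% of promoters), the HNF4 sites CAAAGGTCA (0.478%, which contains AGGTCA) and CAAAGTCCA (0.475%), and the HNF1 site (0.399%), each on both strands. Of the 9 members with an entry in the promoter table, 4 hold TATAAA (Apoa2, Apoa5, Apob and Apoe) and 1 holds AGGTCA (Apoa2). Apoa2, Apoa5 and Apoe have more than 1 annotated start, and a member was counted if the window of any start held the motif. The percentages are per window, so the member counts are not set against them. The 3 longer motifs occur in none of the 9. Only exact matches to the motif letters were searched, so sites that differ by a letter were not counted.

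Apoa1, Apoc3, Apoa4 and Apoa5 are neighbours on chromosome 9, in that order, with no other protein-coding gene between them in RefSeq, and they moved in different ways. Apoa4 encodes a triglyceride-responsive apolipoprotein made mostly by the intestine. Its Fah-/- levels were 2.32, 2.15, 3.71 and 3.00 at the full dose, 1.69, 1.24, 1.84 and 1.59 at the reduced dose, and 5.16, 5.83, 5.76 and 6.03 without NTBC. The arrays without NTBC stood far above all others. Among 41174 probes ordered by brightness, that of Apoa4 moved from rank 2369 to 4871 at the full dose and 5391 to 6799 at the reduced dose up to rank 357 to 715.

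In Fah-/- p53-/- livers Apoa4 was at 1.35, 1.51, 1.89 and 0.19, then 1.51, 3.66, 1.60 and 1.94, then 6.2, 5.46, 5.83 and 6.22 at the full dose, the reduced dose and 0% NTBC. Replicate 2 of the reduced dose lay well above the other 3. Without NTBC Apoa4 rose by 2.90 ± 0.44 in Fah-/-, or 7.45-fold (adjusted p = 2.96e-06, limma), and by 4.69 ± 0.44 in Fah-/- p53-/-, or 25.8-fold (adjusted p = 1.64e-09, limma), the latter between female livers without NTBC and male livers at the full dose. Under the 6 scalings the rises were 2.90 to 4.42 and 4.69 to 6.58, all called. The response without NTBC differed between the genotypes by 1.79 ± 0.62, short of the threshold (adjusted p = 0.0690, limma).

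At the reduced dose Apoa4 fell by 1.21 ± 0.44 on the log2 scale in Fah-/- (adjusted p = 0.0306, limma; -1.21 to -0.83 over the 6 scalings, called under 1), while Fah-/- p53-/- gave 0.94 ± 0.44 (adjusted p = 0.0898, limma). The difference between these responses, 2.15 ± 0.62, passed the test (adjusted p = 0.0278, limma; not called with normexp correction, 2.29), as did 10.4% of all features in that comparison (6.74% higher, 3.62% lower). It shares its full-dose arrays with a difference already there before the dose was lowered: at the full dose Apoa4 was lower by 1.56 ± 0.44 without p53 (adjusted p = 0.0182, limma). Each of these 3 calls was lost when some single arrays were left out. Leaving out Fah-/- full-dose replicate 3 (3.71) gave 1.84 (adjusted p = 0.0624, limma) for the difference of response, -0.90 (adjusted p = 0.122) for the reduced dose in Fah-/- and -1.26 (adjusted p = 0.0763) for p53 loss. Leaving out Fah-/- p53-/- reduced-dose replicate 2 gave 1.66 for the difference of response (adjusted p = 0.0627, limma), and leaving out Fah-/- p53-/- full-dose replicate 4 (0.19) gave 1.80 for it (adjusted p = 0.0625, limma) and -1.21 for p53 loss (adjusted p = 0.0787). Without Fah-/- full-dose replicate 4 or reduced-dose replicate 2 the difference of response was 2.08 (adjusted p = 0.0505, limma) and 2.03 (adjusted p = 0.0600), and the fall in Fah-/- was also lost without full-dose replicate 4 or reduced-dose replicate 1, 2 or 4, at -1.24 to -1.09.

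Among livers without NTBC, Apoa4 in Fah-/- p21-/- was at 3.93, 4.37, 5.43 and 5.31. Replicates 1 and 2, the female samples on one slide, lay below all arrays of both other genotypes, and replicates 3 and 4, the male samples on another slide, lay inside the Fah-/- range. Against Fah-/- the p21 value was -0.93 ± 0.44 (adjusted p = 0.200, limma), and Fah-/- p53-/- against Fah-/- p21-/- was 1.16 ± 0.44 (adjusted p = 0.0886, limma). Whether sex or slide has a part in this was not tested.

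Markers of intestinal epithelium, the usual site of Apoa4 expression, were read beside it. Of 8 markers 4 were tested. Without NTBC, Vil1 (3.12 and 3.28) rose in Fah-/- and Fah-/- p53-/- livers, while Fabp2 fell by 1.17 on the log2 scale in the first and rose by 1.36 in the second. Fabp2 reached 0.35 in Fah-/- in 1 of the 6 scalings. Rbp2 and Lct were not well above background on any full-dose array of these genotypes and were on all 8 of their arrays without NTBC. The summed linear level of the 4 (signal over the array's 75th percentile) was 66.7 to 81.6 at the full dose and 23.8 to 43.5 without NTBC in Fah-/-, and 34.5 to 57.9 and 77.6 to 128 in Fah-/- p53-/-. Nearly all of this sum is Fabp2, so it does not speak for the other markers. In Fah-/- at the full dose Fabp2 had a mean log2 level of 6.19, against -3.53 for Vil1, -6.2 for Lct and -6.34 for Rbp2. Cdx2, which defines intestinal identity, was not above background in any group. The other untested markers were above background on at least some arrays. Cdx1 was so only in Fah-/- p53-/- without NTBC, and Muc2 only in Fah-/- p53-/- at the reduced dose. Sis was so in Fah-/- at the full dose, Fah-/- p53-/- at the reduced dose and Fah-/- p21-/-. The part of these cells or of this programme in the Apoa4 rise was not tested.

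Apoa1, the core protein of high density lipoprotein, fell at the reduced dose and, in Fah-/-, stood higher again without NTBC. Fah-/- levels were 8.15, 8.25, 8.01 and 7.94 at the full dose, 7.13, 6.83, 6.67 and 6.84 at the reduced dose, and 7.32, 7.49, 7.45 and 7.27 without NTBC. The 3 doses did not overlap, and the reduced dose was the lowest. The reduced dose gave -1.22 ± 0.15, or 2.34-fold lower (adjusted p = 1.61e-06, limma), and from reduced to 0% NTBC Apoa1 rose by 0.52 ± 0.15 (adjusted p = 0.00519, limma).

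Apoa1 in Fah-/- p53-/- was at 7.24, 7.55, 7.58 and 7.52, then 6.58, 7.33, 6.79 and 6.25, then 7.15, 7.02, 6.95 and 6.81. The reduced-dose arrays spread over more than 1 unit and overlapped both other doses. From the reduced dose (mean 6.74) to 0% NTBC (mean 6.98) Apoa1 was not called in this genotype. The reduced dose gave -0.74 ± 0.15 (adjusted p = 5.47e-04, limma) and 0% NTBC gave -0.49 ± 0.15 (adjusted p = 0.00634, limma), both against the full dose. The fall at the reduced dose in this genotype was called under 1 of 6 scalings, with a range of -0.74 to 0.26. At the full dose Apoa1 was lower without p53 by 0.62 ± 0.15 on the log2 scale (adjusted p = 0.00813, limma). It was not called with quantile normalization (-0.45). With Apoa4 this made 2 of the 10 genes lower and none higher, beside 13.9% of all features called (6.31% higher, 7.64% lower). Each genotype had its own slide at that dose, so slide and p53 loss cannot be told apart. The change from full dose to 0% NTBC depended on scaling: it was -0.71 and -0.49 in the 2 genotypes here, but 0.33 and 0.43 with quantile normalization and 0.81 and 1.39 with spike-in scaling.

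Apoc3, an inhibitor of lipoprotein lipase, followed the main downward pattern and was the one gene of the 10 called for p53 loss without NTBC. Its Fah-/- levels were 8.92 to 9.17 at the full dose, 8.31 to 8.61 at the reduced dose, and 7.2, 7.44, 7.67 and 7.38 without NTBC. In Fah-/- p53-/- they were 8.65 to 9.17, 8.06 to 8.57, and 6.28, 6.66, 6.66 and 6.80. Without NTBC these genotypes did not overlap for Apoc3 and Apoa1 among the 10 genes, as for 17.1% of all features, and in Apoc3 Fah-/- p21-/- (6.35, 7.12, 7.15 and 7.30) overlapped both. The fall from full dose to 0% NTBC was 1.58 ± 0.17 on the log2 scale in Fah-/- (adjusted p = 2.49e-08, limma) and 2.33 ± 0.17 in Fah-/- p53-/- (adjusted p = 4.03e-11, limma). Over the 6 scalings these changes reached -0.06 and -0.44, and 5 of 6 were called in each genotype. A second Apoc3 probe gave -1.56 ± 0.18 and -2.34 ± 0.18 and followed the first at r = 0.999 over the 28 arrays.

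Loss of p53 without NTBC lowered Apoc3 by 0.82 ± 0.17 (adjusted p = 0.00284, limma), beside 14.2% of all features called (7.66% higher, 6.59% lower). All Fah-/- p53-/- samples in this comparison were female and all Fah-/- samples male, so sex and p53 loss cannot be told apart there. On the 1 slide that held both genotypes the value was -0.59 (adjusted p = 0.185, limma), and with the slide as a fixed block it was -0.58 (adjusted p = 0.190). The difference between the genotypes' responses to 0% NTBC was -0.75 ± 0.24 (adjusted p = 0.0556, limma). Loss of p21 gave -0.44 ± 0.17 (adjusted p = 0.122, limma).

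Apoa5, which raises lipolysis of triglyceride-rich particles, fell without NTBC by 1.54 ± 0.17 in Fah-/- (adjusted p = 2.60e-08, limma) and by 1.80 ± 0.17 in Fah-/- p53-/- (adjusted p = 1.95e-09, limma). Its levels were 8.08 to 8.20 at the full dose, 7.47 to 7.95 at the reduced dose and 6.39 to 6.80 without NTBC in Fah-/-, and 7.89 to 8.26, 7.07 to 7.79 and 6.02 to 6.76 in Fah-/- p53-/-. The doses did not overlap in either genotype. With spike-in scaling Apoa5 stood at -0.02 and 0.09 without NTBC, and the other 5 scalings called the fall in both genotypes. A second Apoa5 probe gave smaller falls without NTBC, of 0.95 and 1.05, and was not called at the reduced dose (-0.34 and -0.17). That probe was called lower for p53 loss at the full dose (-0.48) and at 0% NTBC (-0.59), where the brighter probe gave -0.07 and -0.33 and was not called. At 0% NTBC this comparison is also one of female with male livers.

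Measured within each array, Apoa4 minus Apoa1 ran from -6.10 to -4.30 at the full dose and from -2.16 to -1.24 without NTBC in Fah-/-, and from -7.33 to -5.69 and -1.56 to -0.59 in Fah-/- p53-/-. Apoc3 minus Apoa1 ran the other way, from 0.72 to 1.22 down to -0.12 to 0.22 in Fah-/-, and from 1.13 to 1.79 down to -0.87 to -0.01 in Fah-/- p53-/-. Apoa5 minus Apoa1 fell from between -0.05 and 0.14 to between -1.0 and -0.53, and from between 0.31 and 1.02 to between -0.90 and -0.39. A scaling factor per array cancels from these differences, and in both genotypes the 4 neighbours changed unequally on this scale.

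The annotated starts of 3 of these neighbours are shown because genes side by side on one chromosome moved apart. They come from RefSeq (GRCm38.p6), read 5′ to 3′ from 250 bases before to 50 after the start, with TATAAA in capitals:

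Apoa1, chr9:46228380-46228679, plus strand: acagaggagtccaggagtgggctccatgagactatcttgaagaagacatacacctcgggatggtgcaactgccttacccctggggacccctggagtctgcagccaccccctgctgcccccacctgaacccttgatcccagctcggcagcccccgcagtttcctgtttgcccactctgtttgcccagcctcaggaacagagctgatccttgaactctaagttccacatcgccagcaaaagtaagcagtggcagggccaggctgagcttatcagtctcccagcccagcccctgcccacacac

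Apoa4, chr9:46240594-46240893, plus strand: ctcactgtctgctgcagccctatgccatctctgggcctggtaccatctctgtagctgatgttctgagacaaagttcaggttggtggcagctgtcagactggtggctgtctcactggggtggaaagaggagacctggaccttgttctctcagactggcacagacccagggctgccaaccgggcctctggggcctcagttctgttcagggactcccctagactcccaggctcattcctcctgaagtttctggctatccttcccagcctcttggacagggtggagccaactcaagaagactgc

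Apoa5, chr9:46268358-46268657, plus strand: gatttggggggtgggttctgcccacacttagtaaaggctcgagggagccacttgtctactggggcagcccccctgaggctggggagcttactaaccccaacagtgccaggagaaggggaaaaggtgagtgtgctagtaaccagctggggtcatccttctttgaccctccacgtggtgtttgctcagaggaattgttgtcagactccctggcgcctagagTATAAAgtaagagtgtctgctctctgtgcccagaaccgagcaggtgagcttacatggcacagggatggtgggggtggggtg

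TATAAA stands 31 bases before the start shown for Apoa5, which has another annotated start, and none of the 5 motifs occurs in the windows of Apoa1 and Apoa4.

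Apoe, the ligand for remnant uptake by the LDL receptor and its relatives, changed with dose by an amount that depended on scaling. Levels in Fah-/- were 10.43, 10.49, 10.16 and 10.44 at the full dose, 9.67, 9.77, 9.75 and 9.80 at the reduced dose, and 8.58, 8.80, 8.82 and 8.62 without NTBC. In Fah-/- p53-/- they were 10.27 to 10.55, 9.59 to 9.94 and 8.67 to 8.79. The 3 doses formed separate steps in both. The change without NTBC was -1.68 ± 0.09 (adjusted p = 4.41e-13, limma) in Fah-/- and -1.72 ± 0.09 (adjusted p = 2.71e-13, limma) in Fah-/- p53-/-.

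Yet the Apoe probe kept its place among the brightest of the array, at rank 5 to 10 of 41174 on all 28 arrays. Quantile normalization, which gives a rank the same value on every array, accordingly gave 0.05 and -0.05 for the same comparisons, and spike-in scaling gave -0.16 and 0.17. Unscaled signals, with no percentile set, gave -0.85 and -0.94. Over the 28 arrays the features most like Apoe on the scaled log2 levels were Ahsg (r = 0.997), Alb (0.996) and Rbp4 (0.996), 3 bright transcripts of secreted hepatocyte proteins.

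Apoa2, the second protein of high density lipoprotein, fell without NTBC under all 6 scalings. Its levels were 9.42 to 9.71 at the full dose, 8.92 to 9.25 at the reduced dose and 6.99 to 7.56 without NTBC in Fah-/-, and 9.29 to 9.81, 8.99 to 9.20 and 6.89 to 7.25 in Fah-/- p53-/-. The change without NTBC was -2.32 ± 0.15, or 5.0-fold lower (adjusted p = 3.22e-12, limma), and -2.51 ± 0.15, or 5.70-fold lower (adjusted p = 8.20e-13, limma). Under the scalings it ranged from -2.32 to -0.80 and from -2.51 to -0.62. The brightness rank of its probe went from 18 to 36 on the 16 arrays with NTBC to 109 to 228 on the 12 without.

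Lcat, the enzyme that esterifies cholesterol on high density lipoprotein, had levels of 4.64 to 4.85, 4.24 to 4.53 and 3.07 to 3.82 in Fah-/-, and of 4.59 to 4.87, 4.23 to 4.62 and 3.08 to 3.41 in Fah-/- p53-/-, at full, reduced and 0% NTBC. It fell without NTBC by 1.4 ± 0.14 (adjusted p = 4.54e-09, limma) and by 1.42 ± 0.14 (adjusted p = 3.62e-09, limma). At the reduced dose Lcat gave -0.40 ± 0.14 in Fah-/- (adjusted p = 0.0242, limma; -0.41 to -0.02 over the 6 scalings, called under 1) and -0.24 ± 0.14 in Fah-/- p53-/- (adjusted p = 0.174, limma). With spike-in scaling Lcat stood at 0.12 and 0.47 without NTBC, against a median of 1.35 and 1.74 for all features.

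Apom, which carries sphingosine 1-phosphate on high density lipoprotein, had group means of 7.0 to 7.29, and each group overlapped its neighbours in that order. In Fah-/- Apom was not called at the reduced dose, but its arrays there (6.92 to 7.06) did not overlap those of the full dose (7.14 to 7.38). The same held for 44.3% of all features. Apom was also read without NTBC. Its changes without NTBC were -0.11 ± 0.11 in Fah-/- (adjusted p = 0.379, limma) and -0.11 ± 0.11 in Fah-/- p53-/- (adjusted p = 0.364, limma), with 95% intervals of -0.33 to 0.11 in both. This rests on the percentile scaling, since quantile normalization gave 0.83 in both genotypes (adjusted p = 4.64e-07 and 4.13e-07, limma) and the deposited values 0.77 and 0.86. The rank of its probe moved from 266 to 385 at the full dose to 101 to 197 on the 12 arrays without NTBC.

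**Figure D4:**
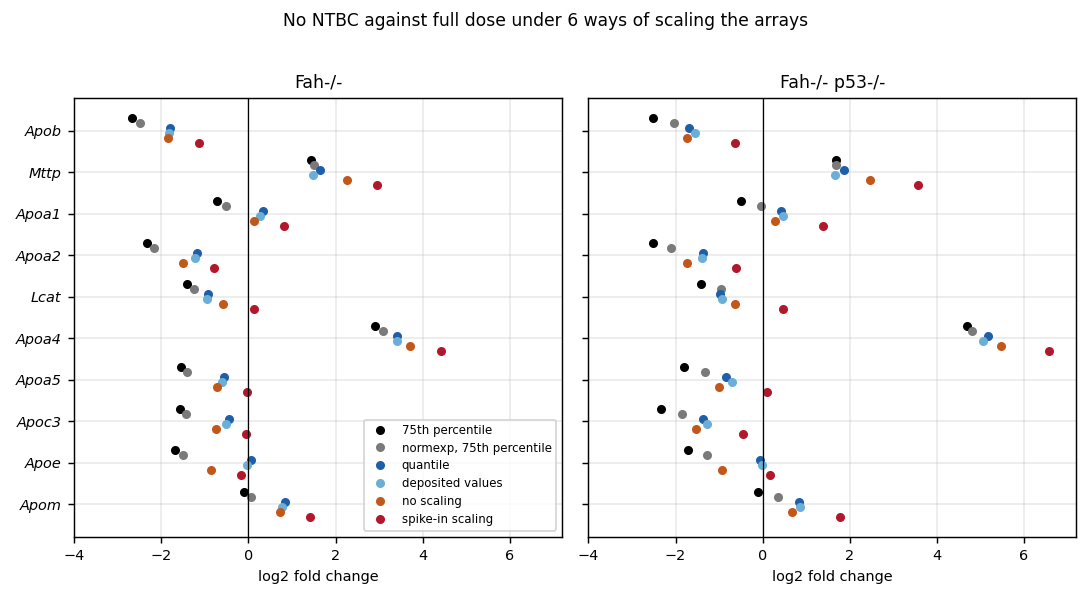
Log2 fold change of each gene at 0% NTBC against the full dose in Fah-/- (left) and Fah-/- p53-/- (right) under 6 ways of scaling the arrays. Apob and Apoa2 stay left of 0, Mttp and Apoa4 right of it, while Apoa1 and Apom lie on both sides of 0 in both genotypes and Apoe, Lcat and Apoa5 reach it.

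The order of the groups was much the same for the genes that fell. Apob, Apoa2, Apoa5, Apoc3, Apoe and Lcat had their 3 lowest group means in the 3 genotypes without NTBC, and within that trio each group overlapped the next in order of level. Over the 28 arrays, as a description of arrays that share dose and scaling, these 6 genes correlated with each other at r = 0.91 to 0.97. Mttp and Apoa4 correlated at 0.80 with each other and at -0.92 to -0.79 with those 6. Apoa1 lay at 0.34 to 0.50 with the 6, and Apom at 0.04 to 0.15.

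The features most like the other members, by r over the same 28 arrays, were Spop (0.986) for Apob, Serpinc1 (0.992) for Apoa2, Plg (0.974) for Apoa5, F10 (0.979) for Apoc3 and Bckdha (0.984) and Apoh (0.978) for Lcat. For Mttp they were Cdhr2 (0.964), Ascl3 (0.963) and Cda (0.960), and for Apoa4 Cltb (0.960), Cidea (0.946) and Hmces (0.940). Apoa1 reached 0.881 with Cib1, and no feature exceeded 0.678 with Apom.

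Between genotypes at one dose at most 2 of the 10 genes were called. At the reduced dose 1 of them was lower without p53, Apob by 0.61 ± 0.16 (adjusted p = 0.0116, limma), beside 15.6% of features called (9.83% higher, 5.78% lower). It was not called with normexp correction (-0.57, adjusted p = 0.607, limma), quantile normalization (-0.43) or spike-in scaling (-0.26), and of the 5 Apob probes 2 were called. The arrays of the genotypes did not overlap at that dose for Apob alone of the 10, as for 24% of all features. Slide and p53 loss cannot be told apart there. For p21 loss at 0% NTBC none of the 10 was called (7.52% of features called, 3.94% higher and 3.59% lower), and 3 had an unadjusted p under 0.05 in limma. Replicates 1 and 2 of Fah-/- p21-/- carry the female pattern, and all Fah-/- arrays the male one. For p53 loss against p21 loss the count was also 0 (11% called, 5.05% higher and 5.97% lower), with 3 at an unadjusted p under 0.05. The nearest were Apoa1 for p21 loss (-0.47 ± 0.15, adjusted p = 0.0599, limma), where the 4 arrays of each group did not overlap (12.3% of features), and Apoa4 for p53 against p21 loss. The difference of response to 0% NTBC called none of the 10 (9.13% of features, 4.91% higher and 4.22% lower), and 2 had an unadjusted p under 0.05 in limma.

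The direction of genotype calls over all features also moved with scaling. For p53 loss at the full dose 45.2% of called features were higher, against 22.3% with normexp correction, 31.2% unscaled and 12.3% with spike-in scaling, and at the reduced dose 63.0% were, against 51.4%, 93.8% and 97.3%. At 0% NTBC the share was 53.7% for p53 loss (29.4% unscaled, 78.1% with spike-in scaling), 52.3% for p21 loss (13.1% and 40.8%) and 45.8% for p53 against p21 loss (69.6% and 84.4%). For the difference of response it was 65.1% at the reduced dose (75.6% with normexp correction, 95% unscaled, 98.8% with spike-in scaling) and 53.8% at 0% NTBC (91.4% with spike-in scaling).

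Beyond the 10, other genes of the pathway were read from lists of related genes. Counts for 0% NTBC against the full dose are to be read beside the shares over all features. In Fah-/- 70.8% of features were called (41.5% lower, 29.3% higher, median -0.17). In Fah-/- p53-/- 69.7% were called (40% lower, 29.6% higher, median -0.14). Among other apolipoproteins 16 of 21 were tested. Without NTBC, 11 fell and 2 rose in Fah-/- and 12 fell and 2 rose in Fah-/- p53-/-, with medians of -1.42 and -1.81. With spike-in scaling the counts were 4 and 6, and 3 and 7. Pon1, the high density lipoprotein lactonase, fell by 4.13 ± 0.37 (adjusted p = 1.20e-09, limma) and by 3.64 ± 0.37, and Apol7a fell by 2.57 and 3.19, both under all 6 scalings.

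Apoc2, Apoc4, Apoc1 and Apoe lie side by side on chromosome 7 in RefSeq and did not move together. Apoc1 fell by 1.95 ± 0.11 and Apoc4 by 2.64 ± 0.32 without NTBC in Fah-/-, and by 1.84 and 2.06 in Fah-/- p53-/-, though Apoc1 stood at 0.05 in the latter with spike-in scaling. Apoc2, the activator of lipoprotein lipase, rose by 0.37 ± 0.11 in Fah-/- (adjusted p = 0.00594, limma) and stood at 0.20 ± 0.11 in Fah-/- p53-/- (adjusted p = 0.128, limma). Its Fah-/- levels were 8.06, 8.47, 8.09 and 8.11 at the full dose and 8.43, 8.58, 8.65 and 8.54 without NTBC, with 1 overlapping pair of arrays.

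Genes of particle assembly and lipid loading moved less in one direction, with medians near those of all features (-0.17 in Fah-/- and -0.14 in Fah-/- p53-/-). Of 22 listed, 21 were tested, and 3 rose and 5 fell without NTBC in Fah-/- (median -0.15), while 6 rose and 11 fell in Fah-/- p53-/- (median -0.21). Under quantile normalization 8 rose and 4 fell, and 11 rose and 5 fell. Cideb, a lipid droplet protein needed to lipidate the particle, fell by 1.81 and 1.12, and A1cf, a cofactor of Apob mRNA editing, fell by 1.69 and 1.84. Both reached positive values with spike-in scaling in Fah-/- p53-/- (0.77 and 0.05). Soat1, which esterifies cholesterol, rose by 1.03 and 1.08, and Sec24d, a coat protein of export from the endoplasmic reticulum, by 0.63 and 1.52, upward under all 6 scalings.

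Among 23 genes of plasma remodelling and uptake, 4 rose and 13 fell without NTBC in Fah-/- and 5 rose and 15 fell in Fah-/- p53-/-, with medians of -1.09 and -0.84; under spike-in scaling the counts were 12 and 3, and 16 and 4. Lpl, the lipase of plasma triglyceride, rose by 2.31 and 3.00, and already by 2.63 and 3.79 at the reduced dose. Lipc, the hepatic lipase, fell by 2.74 and 2.31. These directions held under all 6 scalings.

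Vldlr, a receptor for triglyceride-rich particles, differed between the genotypes at the full dose. Its levels there were -2.18, -1.66, -1.74 and -1.30 in Fah-/- and 3.00, 2.45, 1.71 and 2.72 in Fah-/- p53-/-. The groups lay far apart, by a log2 difference of 4.19 ± 0.37 (adjusted p = 2.39e-08, limma). Vldlr was also higher without p53 by 1.90 at the reduced dose and by 1.84 without NTBC. Each of these full-dose and reduced-dose genotypes had its own slide. Without NTBC all Fah-/- p53-/- samples were female and all Fah-/- samples male, so sex and p53 loss cannot be told apart there.

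Of 30 transcription factors known to act on such genes 28 were tested, and without NTBC 17 fell and 2 rose in Fah-/- and 19 fell and 1 rose in Fah-/- p53-/-, with medians of -0.80 and -0.75; with spike-in scaling 1 fell and 19 rose, and 1 fell and 20 rose. Srebf1, the lipogenic factor, fell by 2.14 and 2.55, and stayed below 0 under all 6 scalings. Hnf4a, a main activator of hepatic apolipoprotein genes, fell by 0.78 and 0.76, but rose with spike-in scaling to 0.74 and 1.13.

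**Figure D5:**
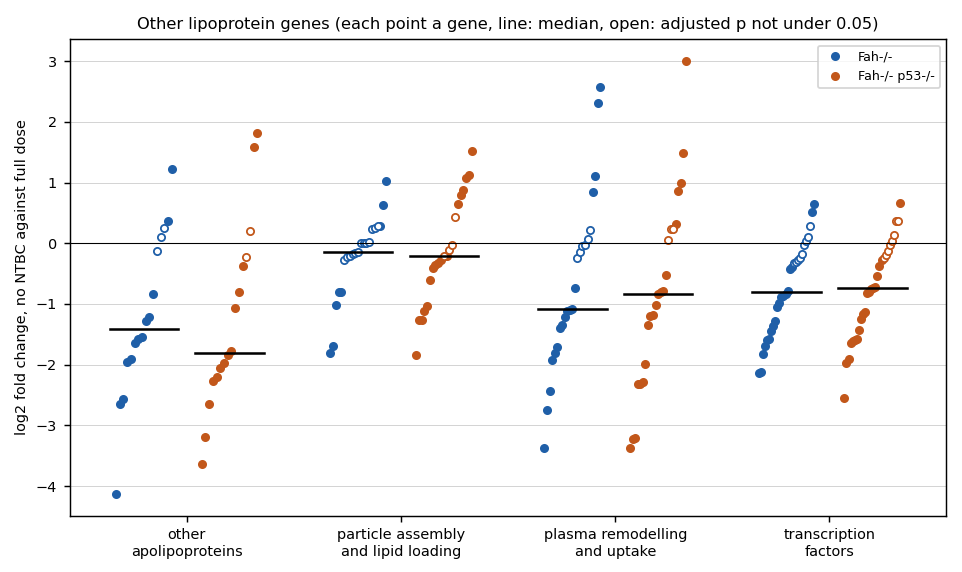
Log2 fold change at 0% NTBC against the full dose for genes of 4 lists related to lipoproteins, in Fah-/- (blue) and Fah-/- p53-/- (orange), with 75th percentile scaling. Each point is a gene, filled where the limma test passed, and the line is the list's median, from -1.81 in the other apolipoproteins to -0.15 in particle assembly.

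Cell type markers moved with dose as well, and in bulk liver fewer cells of a type and less RNA per cell cannot be told apart. All 8 hepatocyte markers tested, of which Apoh and Hnf4a also stand in the lists above, fell without NTBC in both genotypes (medians -1.57 and -1.62), and their summed linear level went from 3550 to 4270 at the full dose down to 1200 to 1530 in Fah-/-, and from 3950 to 4380 down to 1210 to 1320 in Fah-/- p53-/-. With spike-in scaling 3 of the 8 rose and 1 fell in Fah-/-, and 3 rose in Fah-/- p53-/-. Macrophage markers rose, 9 of 9 in Fah-/- and 8 of 9 in Fah-/- p53-/-, with summed levels going from 44.3 to 73.8 up to 82 to 367, and from 43.2 to 77.8 up to 110 to 203. Biliary markers rose in 4 and 3 of 6. Markers of stellate cells rose in 2 and 3 of 8, those of endothelium rose in 4 and fell in 1 of 8 in Fah-/- and rose in 1 and fell in 2 in Fah-/- p53-/-, lymphocyte markers rose in 2 and fell in 4 of 8 and fell in 6 of 8, erythroid markers fell in 3 of 3, and neutrophil markers were called in none of 3. Beside these marker counts, 41.5% of all features were called lower and 29.3% higher in Fah-/-, and 40% and 29.6% in Fah-/- p53-/-. The part of cell composition in the changes of the 10 genes was not tested.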

How the data were processed

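Gene expression in 28 liver RNA samples was measured on single-colour Agilent arrays. Per the file headers, signals were extracted with Agilent Feature Extraction 10.7.3.1 (10.5 per the submitters' processing notes) and are deposited as background-subtracted intensity with no scaling between arrays. The deposited value table holds the authors' values on a log2 scale, with array medians of 6.89 to 6.91, and their scaling between arrays is not given in these sources. It served as an alternative.

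Each processed signal was taken as log2 minus the log2 75th percentile of its array. A probe was kept if some group had it well above background on each of its 4 arrays (27506 of 41174), the brightest probe stood for a gene, and limma 3.58.1 (R 4.3.3) fitted the 7 group means over 28 arrays with Benjamini-Hochberg adjustment over 20300 features. The number of arrays limits the precision. The fit was tested on simulated data. Alternatives changed the background correction, scaling, filter, probe choice, samples, blocks and arrays. Normexp correction (offset 50) used median spot and background signals, since mean signals are not in the files. Unscaled signals and spike-in scaling were chosen after seeing the data.

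The 10 genes and all lists were chosen with earlier results of these data known. Named were all 10 genes, the deleted genes, sex genes, up to 4 called genes with the largest rise and fall per list, genes a result turns on, and the 3 features most like each of the 10. Hnf4a and the chromosome 7 neighbours of Apoe were named for their known link to the 10 genes. Same-numbered arrays of different groups did not deviate together, so no pairing was used. Some genes of the lists are not reported here by name.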

Additional observations from a re-analysis of the deposited data

Results flagged for a closer look

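The response of Apoa4 to the reduced dose differed between the genotypes by 2.15 ± 0.62 on the log2 scale (adjusted p = 0.0278, limma), from -1.21 in Fah-/- to 0.94 in Fah-/- p53-/-. It drew attention because the difference itself passed the test, which no other of the 10 genes did for either dose. As given above, the call was lost with normexp correction and when any of several single arrays was left out. In 70 sets of 4 arrays (10 genes in 7 groups), no array stood apart from the other 3 beyond Dixon's critical value, where chance alone gives about 1 in 20.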

How the results depend on the processing

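Leaving out single arrays kept 9 of the 10 genes called for 0% NTBC against the full dose and against the reduced dose in Fah-/-, 9 for 0% NTBC against the full dose and 8 to 9 against the reduced dose in Fah-/- p53-/-, and 7 for the reduced dose in Fah-/- p53-/-. The reduced dose in Fah-/- gave 5 to 7 in place of 8, p53 loss 1 to 2 at each of the 3 doses, p21 loss 0, p53 against p21 loss 0 to 1, and the difference of response 0 to 2 at the reduced dose and 0 to 1 at 0% NTBC. The cause of the changes below was not tested.

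Counts of called genes moved as follows. Calls over all features moved as well under many of these settings, as given in the last paragraph. The counts alone therefore do not speak of the 10 genes in particular. Normexp gave 2 for the reduced dose in Fah-/-, 3 in Fah-/- p53-/-, and 0 for p53 loss and for the difference of response at that dose. Quantile normalization gave 2 and 3 for the reduced dose, 1 for p53 loss at the full dose, 2 for p21 loss, 1 for p53 against p21 loss, and 2 and 1 for the differences of response at the reduced dose and at 0% NTBC. Unscaled signals gave 3 and 4 for the reduced dose, 2 for p53 loss at the reduced dose, 2 for it at 0% NTBC, 2 for p21 loss and 3 for the difference of response at the reduced dose. Spike-in scaling gave 2 for the reduced dose in Fah-/-, 2 for p53 loss at that dose, and 7 and 1 for the differences of response. The deposited table gave 2 and 3 for the reduced dose, 2 for p53 loss at that dose, 3 for p21 loss, 1 for p53 against p21 loss and 1 for the difference of response at 0% NTBC. Probes above background on all arrays gave 1 for that difference, and fitting only the groups compared gave 1 for it and 1 for p53 loss at the full dose. The slide as a fixed block gave 0 for p53 loss at 0% NTBC and 1 for p53 against p21 loss, and the shared slide alone gave 0 for p53 loss.

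Signs changed as follows. Against the full dose at 0% NTBC, in Fah-/- and Fah-/- p53-/-, Apoa1 stood at 0.33 and 0.43 with quantile normalization, 0.27 and 0.47 in the deposited table, 0.12 and 0.29 unscaled, and 0.81 and 1.39 with spike-in scaling, and Apom at 0.83 and 0.83, 0.77 and 0.86, 0.72 and 0.67, and 1.41 and 1.78. Apoe in Fah-/- was 0.05 with quantile normalization, and spike-in scaling gave Lcat 0.12 and 0.47, and Apoa5 0.09 and Apoe 0.17 in Fah-/- p53-/-. From the reduced dose to 0% NTBC, Apoe was 0.05 and 0.03 with quantile normalization and 0.01 and 0.01 in the deposited table, Apom in Fah-/- p53-/- was 0.27 with quantile normalization and 0.70 with spike-in scaling, and spike-in scaling gave Apoa5 0.05, Apoc3 0.11, Apoe 0.10 and Lcat 0.14 in Fah-/-. At the reduced dose in Fah-/- p53-/-, normexp gave Apoa2 0.08 and Apoc3 0.01, unscaled signals Apoa2 0.07, and spike-in scaling Apoa1 0.26, Apoa2 0.49, Apoa5 0.25, Apob 0.08, Apoc3 0.42, Apoe 0.32 and Lcat 0.76. Apoe reached 0.57 for the difference of response and 0.35 for p53 loss at the reduced dose with spike-in scaling.

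Replicate numbers did not pair the arrays: over 84 same-numbered pairs the correlation of deviations ran from -0.226 to 0.356 with a median of 0.014, and 11 of 28 arrays correlated best with their own number. With the replicate block, p21 loss had 1 called gene and the difference of response at the reduced dose 2.

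Counts over all features moved by more than 1.5 times in these cases. Normexp gave 2000 for 8071 (reduced dose, Fah-/-), 6729 for 13038 and 5684 for 12440 (0% NTBC against reduced), 220 for 3170 and 725 for 2892 (p53 loss, reduced and 0% NTBC), 183 for 1527 (p21 loss), 467 for 2237 (p53 against p21 loss), and 78 for 2103 and 239 for 1853 (differences of response). Unscaled signals gave 12310 (reduced dose, Fah-/- p53-/-, for 8080), 1321 (p53 against p21 loss), 3222 and 1025 (differences of response). Spike-in scaling gave 16839 (reduced dose, Fah-/- p53-/-), 5626 and 1788 (p53 loss, reduced and 0% NTBC), 660 (p21 loss), 1457 (p53 against p21 loss) and 8193 (difference of response, reduced). For p53 loss at the reduced dose the deposited table gave 2104, probes above background on all arrays 2058 and no filter 6500. No filter also gave 22500 for 14374, 20611 for 13038, 12193 for 8080 and 21585 for 14144 (Fah-/- none against full and against reduced, Fah-/- p53-/- reduced and none against full). For p53 loss at 0% NTBC, p21 loss and p53 against p21 loss, fitting only those groups gave 1332, 353 and 492, the slide as a fixed block 343, 85 and 188, and the shared slide alone 532, 205 and 529.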
